A study of Homo sapiens with 3 samples.

Results

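The genes described here are those whose level moved at least 2-fold with GANT61, an inhibitor of the Gli transcription factors, while cyclopamine left them within 1.5-fold of the vehicle. They were chosen by these folds alone, on single arrays, from genes whose probe was above background with GANT61 or with DMSO. Of 10292 such genes, among 20043 genes with a named probe, 531 met the rule, and 298 of these were higher and 233 lower with GANT61. HCC-LM3 is a human hepatocellular carcinoma (HCC) cell line, which the labels describe as an adherent, epithelial adenocarcinoma. Its cells were treated with 20 μM GANT61, 20 μM cyclopamine or the vehicle DMSO, each for 48 h. The series holds 3 Illumina HT-12 arrays, and each carries total RNA of a single culture condition. Since no condition was repeated, the differences below have no error between cultures, and no test was made. The values of the members are a description, because the same 3 arrays chose them.

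Hedgehog (Hh) ligands bind the receptor Patched (PTCH1), which releases the membrane protein SMO from its block, and SMO then lets the Gli proteins enter the nucleus and activate their targets. GLI1 and GLI2 act mainly as activators, while GLI3 is largely processed to a repressor, and GLI1, PTCH1 and HHIP are themselves direct targets of the pathway. Cyclopamine, a plant alkaloid, acts on SMO at the membrane, and GANT61 was found in a screen for compounds that block transcription driven by Gli proteins. The comparison therefore asks which genes differed from DMSO with the inhibitor at the lower end of the pathway and not with the one at its upper end.

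Each array carried 47319 probes with nearly equal distributions of intensity (medians of 47.6 with GANT61, 47.6 with cyclopamine and 47.7 with DMSO). The most common intensity was 42.5 on every array, and a probe was taken as above background from 63.75, which is 1.5 times that value. Pairs of probes of the same gene gave an SD of a log2 difference of 0.36 to 0.49 over 5 classes of brightness, an error that covers probes and not cultures. Over all probes, the SD of the log2 difference was 0.467 between GANT61 and DMSO, 0.391 between cyclopamine and DMSO and 0.331 between the treated arrays, so the treated arrays were nearer to each other than either was to DMSO. The 9 reference genes with a probe above background stood at a median of −0.73 with GANT61 and −0.54 with cyclopamine relative to DMSO (log2). Arrays scaled on them would have every gene 0.73 higher with GANT61 and 0.54 higher with cyclopamine on the log2 scale, and GANT61 moves by 0.20 relative to cyclopamine. Of 10 markers of liver cells with a probe, 1 was above background, which was ALB (a log2 difference of 0.20 with GANT61), and AFP and GPC3 were not. Of 5 epithelial markers, 3 were above background. EPCAM had 403 with GANT61, 387 with cyclopamine and 401 with DMSO and KRT18 had 239, 181 and 183 in the same order, while KRT8 was low with both compounds (286 with GANT61, 335 with cyclopamine and 1423 with DMSO). The summed level of the 5 markers was 1009 with GANT61, 993 with cyclopamine and 2109 with DMSO, and the part of this in the results below was not tested. None of 4 endothelial or 3 immune markers was above background.

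With GANT61, 852 of the 10292 genes were at least 2-fold higher than with DMSO (8.28%) and 1006 were at least 2-fold lower (9.77%). Most of these genes moved the same way with cyclopamine. Both differences are taken from the same single DMSO array, so an error of that array enters both the same way. Its part in the shared changes was not tested. Of the 852, cyclopamine was over 1.5-fold higher too in 549, within 1.5-fold of DMSO in 298 (2.9% of all genes) and over 1.5-fold lower in 5. Of the 1006, the counts were 766 over 1.5-fold lower, 233 within 1.5-fold (2.26% of all genes) and 7 over 1.5-fold higher. The 531 genes lie at the edge of a single cloud and do not form a group apart from it. Cyclopamine was on the same side of DMSO as GANT61 in 253 of the 298 genes and in 184 of the 233. The treated arrays were at least 2-fold apart in 122 of the 298 and in 122 of the 233, and they differed by 0.44 to 3.47 among the higher genes and by 0.48 to 3.39 among the lower genes, as sizes on the log2 scale. The median log2 difference from DMSO among the higher genes was 1.18 with GANT61 and 0.36 with cyclopamine, and among the lower genes −1.24 with GANT61 and −0.30 with cyclopamine. At 4-fold or more from DMSO stood 21 higher and 17 lower genes. Just inside the 2-fold limit were SLC30A1 (1.0003) and IRS1 (−1.005), and just outside it STX11 (0.9988) and TCFL5 (−0.993), as log2 differences with GANT61. At the bound on cyclopamine, TUT7 (0.58) was just inside and ANKRD36B (0.59) just outside among the higher genes, and SAMD11 (−0.58) just inside and CREB3L2 (−0.59) just outside among the lower ones, as log2 differences with cyclopamine.

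**Figure D1:**
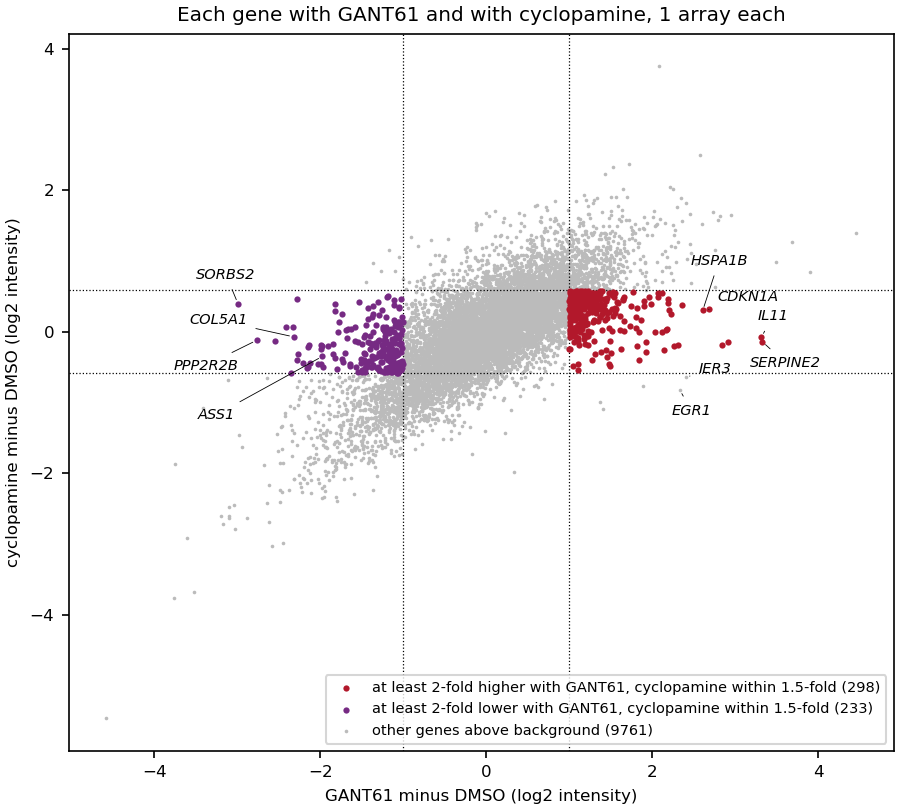
Log2 difference in intensity from the DMSO array with GANT61 (x axis) and with cyclopamine (y axis) for the 10292 genes above background, 1 array a condition. Coloured points are the 298 higher and 233 lower genes of the rule, whose limits are the dotted lines. They sit on the flanks of a cloud in which most genes moved the same way with both compounds, each measured against the same DMSO array.

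The membership depended on the scaling of the arrays more than on the background correction or the choice of probe. When the arrays were scaled on the reference genes, 60 of the 298 higher and 26 of the 233 lower genes still met the rule. With normexp correction 234 and 190 met it, and with probes averaged per gene 200 and 157. Under all 3 of these settings 42 higher and 23 lower genes were kept. Among the higher ones were SERPINE2, IL11, AMHR2, IL24, PHLDA1, TMEM158, CFB, TGM2, LMO7, CD44, PLAUR, ITGA2 and ITGA5, and among the lower ones PDE7B, COL5A1, COL15A1, SVEP1, MAMDC2, PIR, ALDH3A1, ASS1, ITPR1, CRIP1 and MAOB. CDKN1A, HSPA1B, ADM, FOSB and JUN still rose under the scaling, but there cyclopamine lay over 1.5-fold above DMSO as well.

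Few Hh genes could be measured at all. Of 24 genes of the pathway with a probe, 9 were above background with GANT61 or DMSO, and none met the rule, beside 2.9% and 2.26% of all genes. GLI1, the usual readout of the pathway, was at 39.5 with GANT61, 41.2 with cyclopamine and 40.9 with DMSO, all below the limit. PTCH1 (36.5, 48.3 and 55.9 in the same order), HHIP (39.5, 41.1 and 42.8) and SMO (41.2, 38.6 and 39.9) were below it as well, so no fold is given for them. GLI2, the main activator of the pathway, was just above the limit, at 74.0 with GANT61, 108 with cyclopamine and 127 with DMSO. Its level was lowest with GANT61 and stood between the others with cyclopamine, and its log2 difference of −0.79 did not reach 2-fold. GLI3 had 78.0 with GANT61, 109 with cyclopamine and 109 with DMSO, so that the GANT61 array alone was low. GAS1, a membrane protein that binds Hh ligands, had 653 with GANT61, 1527 with cyclopamine and 1023 with DMSO, and BCL2, an inhibitor of cell death, had 130, 286 and 196 in the same order. By these probes both were lowest with GANT61 and highest with cyclopamine, but a second probe of GAS1 gave 220 with GANT61, 476 with cyclopamine and 219 with DMSO, and one of BCL2 gave 95.1, 206 and 108. CCND1 (cyclin D1), often cited as a target, had 1366 with GANT61, 1582 with cyclopamine and 1576 with DMSO. JAG2, a Notch ligand placed in the list as a reported target, was the 1 gene at least 2-fold lower with GANT61, and it was low with both compounds (155 with GANT61, 176 with cyclopamine and 392 with DMSO). The median log2 difference over the 9 genes was −0.48 with GANT61 and 0.01 with cyclopamine, and with the arrays scaled on the reference genes the first of these turns positive (0.26). The median over all genes was 0.02 with each compound and 0.75 with GANT61 after that scaling, so the Hh genes lay below it in both.

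The genes with the largest rises are described first, and several of them were above background with GANT61 alone. SERPINE2, an inhibitor of thrombin and urokinase that is secreted into the matrix, had an intensity of 8979 with GANT61, 812 with cyclopamine and 895 with DMSO, a 10-fold rise. IL11, a cytokine of the IL-6 family, had 585 with GANT61, whereas it was below background with cyclopamine (55.9) and with DMSO (58.8), a rise of at least 9.17-fold against the background limit. IL24, a cytokine of the IL-10 family, had 349 with GANT61, 42.9 with cyclopamine and 48.6 with DMSO, a rise of at least 5.48-fold, and its other probe had 71.1, 41.9 and 37.3. AMHR2, the receptor of anti-Müllerian hormone, had 384, 46.4 and 51.0 in the same order (at least 6.03-fold). All 3 genes were seen above background on the GANT61 array alone. ADM (adrenomedullin), a peptide that widens vessels and is induced by low oxygen, reached 6959 with GANT61, against 1769 with cyclopamine and 1355 with DMSO. CFB, complement factor B, had 1439 with GANT61, 273 with cyclopamine and 328 with DMSO. TMEM158, a membrane protein described as induced by Ras, had 5601, 991 and 1126. These 3 genes were 4.39-fold to 5.13-fold higher with GANT61 than with DMSO. Cyclopamine was close to DMSO, as the rule required, and on either side of it. TGM2, a transglutaminase that cross-links proteins, had 206 with GANT61 and was below background with cyclopamine (47.6) and DMSO (47.5), at least 3.23-fold higher, and its other probe had 114 with GANT61 and was again below background with cyclopamine (47.9) and DMSO (51.5). PLIN2 and PLIN3, coats of lipid droplets, are both members, and PLIN2 had 561 with GANT61, 189 with cyclopamine and 134 with DMSO (169, 90.4 and 63.0 by its other probe, the last of these below background).

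**Figure D2:**
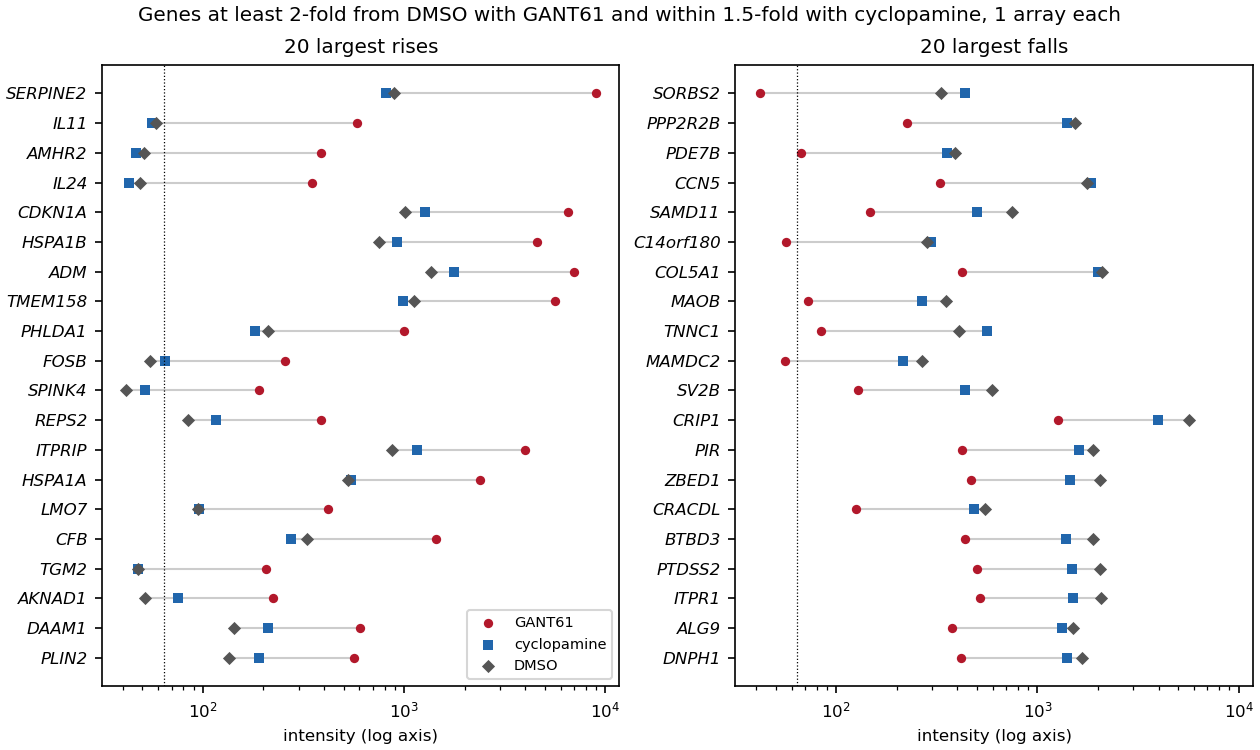
Intensity (log axis) on the GANT61, cyclopamine and DMSO arrays of the 20 genes with the largest rises (left) and the 20 with the largest falls (right) among the 531 genes, 1 point an array; the dotted line is the background limit of 63.75. The GANT61 point stands far from the other two, which lie close together because the rule asked for it, and IL11, AMHR2, IL24, SPINK4 and TGM2 are above the limit with GANT61 alone.

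Immediate early genes, which growth factors and stress switch on without new protein synthesis, and the genes that feed back on MAP kinase signalling were counted as lists. Of 24 immediate early genes above background, 9 were at least 2-fold higher with GANT61 and none lower, beside 8.28% and 9.77% of all genes. Of the 9, 6 met the rule. None of these 6 met it with the arrays scaled on the reference genes, where 7 other genes of the list did. On the log2 scale the list had a median of 0.62 with GANT61, against −0.05 with cyclopamine. FOSB, a subunit of the AP-1 factor, had 255 with GANT61, 64.9 with cyclopamine and 54.5 with DMSO, which was below background. JUN, its partner, had 595 with GANT61, 177 with cyclopamine and 170 with DMSO, 3.50-fold higher. SRF, the factor that drives many immediate early genes and actin genes, had 1801, 1127 and 848, and KLF2, IER2 and the survival factor MCL1 were also members, at log2 differences of 1.13, 1.01 and 1.04. For these 4 genes cyclopamine stood between GANT61 and DMSO, and the other probe of MCL1 gave 1.06 with GANT61 and 0.04 with cyclopamine. The list did not move as a whole. FOS itself, with 330 on the GANT61 array, 227 with cyclopamine and 324 with DMSO, hardly differed, and CCN2 (connective tissue growth factor) and JUND were not higher (log2 differences of 0.00 and −0.41), although another probe of CCN2 gave 0.54 with GANT61 and 0.89 with cyclopamine. Outside the list, CSRNP1 and MAFF, nuclear factors of the same early response, were members, with 1151 and 644 with GANT61, 322 and 223 with cyclopamine and 321 and 313 with DMSO. The other probe of MAFF gave 1.13 with GANT61 and −0.03 with cyclopamine. Both genes were chosen after their values were seen.

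Of 18 genes of MAP kinase feedback above background, 5 were at least 2-fold higher with GANT61 and 1 lower, beside 8.28% and 9.77% of all genes. PHLDA1, which is induced by receptor tyrosine kinase signalling, had 1003 with GANT61, 182 with cyclopamine and 209 with DMSO by the probe that chose it, and its second, dim probe gave 82.9, 66.2 and 59.1, the last of these below background. DUSP6, the phosphatase that switches off ERK, had 527 with GANT61, 176 with cyclopamine and 152 with DMSO. DUSP1 (4683, 2314 and 1051) and SPRY2 (907, 589 and 228) rose with both compounds and so fell outside the rule. ETV4 and SPRY1, which are also read as outputs of ERK, had log2 differences of −0.76 and −0.60 with GANT61 and −0.90 and −0.74 with cyclopamine, and their other probes gave −0.47 and −1.31 with GANT61 and −0.94 and −1.25 with cyclopamine.

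Promoter sequences were searched for the motifs of factors named above and for some others, and some examples that carry an intact motif are printed. Other genes discussed here with an AP-1 match, which are not printed, were ITGA5, CAPN2, DCLRE1C, PIR and SLC3A2. The same holds for DNAJA1 and SERPINH1 with the heat shock element and for CAPN2 with the CArG box. RefSeq (GRCh38.p14) gave a window of 300 bases, from 250 before to 50 after the start, for 246 of the higher and 186 of the lower genes. The AP-1 motif TGANTCA, matched on both strands, was in 21 of the 246 windows (8.54%) and in 5 of the 186 (2.69%), beside 4.26% of 8382 genes above background and 7.76% of all 27305 promoters. The Gli motif GACCACCCA was in none of the 246 or the 186, and in 0.203% of the genes above background and 0.249% of all promoters. Its shorter core ACCACCC was in 4.47% of the higher, 7.53% of the lower and 4.93% of the genes above background. In the same order, the E-box CACGTG was in 6.10%, 10.2% and 10.9%, and the CHR motif TTTGAA in 11.8%, 6.99% and 9.44%. The CRE motif TGACGTCA was in 3.25%, 4.84% and 3.61%, and the ATF4 and CEBP element TGATGNAAN in 1.22%, 2.15% and 1.56%. The heat shock element, searched as GAANNTTCNNGAA, was in 3 of the 246, 1 of the 186 and 0.310% of genes above background, and the CArG box, the site of SRF, was in 5 of the 246, 1 of the 186 and 1.09%. The last 2 motifs and the windows to print were chosen after the members were known. A match of letters is a description and says nothing on binding. Each line gives a stretch of 80 bases that holds the motif and lies before the start, at a distance that differs by gene. It runs 5′ to 3′ on the strand of the gene, with the motif in capitals. For AP-1 they are IL11 (chr19:55370517-55370596, minus strand, motif from −96 to −90), PLAUR (chr19:43670313-43670392, minus strand, −186 to −180), MT2A (chr16:56608443-56608522, plus strand, −104 to −98) and BAG3 (chr10:119651300-119651379, plus strand, −19 to −13).
IL11: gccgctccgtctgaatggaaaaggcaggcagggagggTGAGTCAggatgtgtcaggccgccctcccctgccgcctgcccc
PLAUR: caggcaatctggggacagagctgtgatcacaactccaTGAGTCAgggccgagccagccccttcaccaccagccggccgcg
MT2A: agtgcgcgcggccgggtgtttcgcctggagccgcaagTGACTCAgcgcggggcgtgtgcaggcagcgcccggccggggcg
BAG3: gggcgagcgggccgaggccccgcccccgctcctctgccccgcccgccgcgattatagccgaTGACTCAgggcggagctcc

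For the heat shock element they are CHORDC1 (chr11:90223059-90223138, minus strand), where 3 overlapping matches run from −60 to −38, and DNAJB6 (chr7:157336839-157336918, plus strand, −131 to −119). For the CArG box it is SRF (chr6:43171189-43171268, plus strand), with 2 matches between −30 and −1.
CHORDC1: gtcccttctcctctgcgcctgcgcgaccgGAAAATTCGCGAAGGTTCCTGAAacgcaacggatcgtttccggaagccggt
DNAJB6: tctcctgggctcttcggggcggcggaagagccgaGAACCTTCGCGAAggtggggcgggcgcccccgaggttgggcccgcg
SRF: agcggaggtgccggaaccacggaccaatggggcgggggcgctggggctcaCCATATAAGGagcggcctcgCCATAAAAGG

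Heat shock genes, most of which code for chaperones that keep proteins folded, were counted as a list. Of 17 heat shock genes above background, 6 were at least 2-fold higher and 1 lower, beside 8.28% and 9.77% of all genes. Of the 6, 5 met the rule, as did 2.9% of all genes in this direction. The median of the list was 0.91 with GANT61 and 0.06 with cyclopamine on the log2 scale. HSPA1B, the inducible HSP70, had 4573 with GANT61, 926 with cyclopamine and 751 with DMSO, and HSPA1A had 2384, 544 and 528. These genes are nearly identical, so their probes may read each other's transcript and count as 1 observation. BAG3, a partner of HSP70 whose AP-1 match is printed above, had 1098 with GANT61, 411 with cyclopamine and 394 with DMSO. CHORDC1, a partner of HSP90 with the 3 overlapping elements above, had 1011, 501 and 372, and DNAJA1, an HSP40, had 4413, 2477 and 1978. The GANT61 array was highest for each of these 5 genes, as the rule required. With the arrays scaled on the reference genes, HSPA1A alone of the 5 still met the rule. DNAJB6, another HSP40, had 1482 with GANT61, 801 with cyclopamine and 677 with DMSO by the probe that chose it, whereas its other probe gave a log2 difference of −0.96. DNAJB1, another member of the family, had 792 with GANT61, 433 with cyclopamine and 836 with DMSO. HSPE1 had 2400, 1618 and 2455 by its brightest probe, but 514, 179 and 213 by another. HSP90AB1 was low with both compounds (1595 with GANT61, 1305 with cyclopamine and 4480 with DMSO).

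Of 6 genes of metal binding and transport above background, 4 were at least 2-fold higher with GANT61 and 1 lower. The shares of all genes were 8.28% and 9.77%. Of the 4, 3 met the rule, and none of these did with the arrays scaled on the reference genes. MT2A, a metallothionein that binds zinc and copper, had 4838 with GANT61, 2050 with cyclopamine and 1633 with DMSO. MT1G had 179 with GANT61, 73.7 with cyclopamine and 61.2 with DMSO, and SLC30A1, which exports zinc, had 239, 149 and 119. MT1X, outside the rule, rose with both compounds (2052 with GANT61, 1346 with cyclopamine and 600.4 with DMSO). Metallothioneins are close copies of each other, and what their probes share was not tested. MTF1, the factor that switches them on with metal, was low with both (233, 192 and 505).

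Cell cycle arrest and cell death genes moved in part. CDKN1A (p21), the inhibitor of cyclin-dependent kinases, had 6506 with GANT61, 1264 with cyclopamine and 1015 with DMSO, 6.41-fold higher. AEN, a nuclease induced by p53, had 954 with GANT61, 232 with cyclopamine and 233 with DMSO, and its other probe gave a log2 difference of 0.90. PPM1D, the phosphatase that ends p53 signalling, had 510, 332 and 224. Of 23 p53 targets above background, 7 were at least 2-fold higher and 1 was lower with GANT61, beside 8.28% and 9.77% of all genes. Among these targets, GDF15, GADD45A and PMAIP1 rose with cyclopamine too. MDM2, the ligase that degrades p53, was dim and above background with GANT61 alone (91.0 with GANT61, 54.8 with cyclopamine and 59.0 with DMSO). BAX was at 271, 277 and 285, and TP53I3, an oxidoreductase, was a member in the other direction (263, 513 and 546). The median of the list was 0.18 with GANT61 and −0.08 with cyclopamine on the log2 scale, beside 0.02 for all genes with each.

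Of 29 apoptosis genes above background, 6 were at least 2-fold higher and 3 lower with GANT61, beside 8.28% and 9.77% of all genes. TNFRSF10A, a receptor of TRAIL, had 744 with GANT61, 241 with cyclopamine and 265 with DMSO, and BID, which carries the death signal to mitochondria, had 957, 427 and 370, with a log2 difference of 1.09 by its other probe. TNFRSF12A, the receptor of TWEAK, had 1320, 567 and 586. MLKL, the executor of necroptosis, had 3054 with GANT61, 1363 with cyclopamine and 964 with DMSO, and CGAS, a sensor of DNA in the cytosol, had 320, 79.2 and 90.9. These 5 genes were picked among the higher members and are not all in the list. The GANT61 array was the highest in each, as the rule required. BAD, a promoter of cell death, was low with GANT61 (149), against 315 with cyclopamine and 344 with DMSO.

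Genes of replication and mitosis were shared with cyclopamine for the most part. Of 40 G2/M genes, 10 were at least 2-fold lower and 2 higher with GANT61, beside 9.77% and 8.28% of all genes. The rule was met by 1 in each direction. TOP2A, the topoisomerase that untangles sister chromatids, had 1299 with GANT61, 2204 with cyclopamine and 2783 with DMSO, and CDK1 had 2077, 1368 and 975 (a log2 difference of 0.94 with GANT61 by its other probe). Of 39 genes of S phase, 9 were at least 2-fold lower and 3 higher, beside the same 9.77% and 8.28%. The 3 were the members CDT1 and MCM10, which load and start the replicative helicase, and GINS3, a subunit of it, at log2 differences of 1.26, 1.19 and 1.22, although the other probe of MCM10 gave 0.28. The median log2 difference of the G2/M list was −0.52 with GANT61 and −0.77 with cyclopamine and that of the S phase list −0.12 and −0.32, and with the arrays scaled on the reference genes both GANT61 medians turn positive (0.21 and 0.62), still below the 0.75 of all genes. CDK6, the kinase of G1, was a member among the lower genes, at 691 with GANT61, 1259 with cyclopamine and 1407 with DMSO.

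Some receptors of adhesion and of the urokinase system were members among the higher genes. Of 17 genes of proteases, their inhibitors and the urokinase system above background, 5 were at least 2-fold higher and 2 lower. The shares of all genes were 8.28% and 9.77%. The median of that list was 0.03 with GANT61 and −0.00 with cyclopamine on the log2 scale. CD44, the receptor of hyaluronan, had 6523 with GANT61, 2069 with cyclopamine and 2060 with DMSO, and its other probes gave log2 differences of 1.47 and 0.61. PLAUR, the urokinase receptor, had 559 with GANT61, 191 with cyclopamine and 261 with DMSO, and its other probes gave 2.38 and 1.03, so the gene passed 2-fold by 3 probes. ITGA2, the integrin chain that binds collagen, had 712, 224 and 273, and ITGA5, the chain that binds fibronectin, had 312, 101 and 126. AXL, a receptor tyrosine kinase, had 2370 with GANT61, 914 with cyclopamine and 709 with DMSO, and its other probe gave a log2 difference of 0.53. ACTN1 (alpha-actinin) and CAPN2 (calpain), which link and release integrins from actin, had 3874 and 399 with GANT61, 1692 and 155 with cyclopamine and 1386 and 175 with DMSO. Of 12 integrin genes above background, 2 were at least 2-fold higher and 1 lower, and of 29 genes of the actin cytoskeleton 3 and 5. With 8.28% and 9.77% of all genes beside them, neither list moved in 1 direction. TPM1 and CALD1, which bind along actin filaments, were members among the lower genes, at 884 and 967 with GANT61, 1615 and 1909 with cyclopamine and 2287 and 2528 with DMSO. Their other probes disagree, since TPM1 had −1.28, 0.01 and 0.02 and CALD1 had 1.19 and 0.04 as log2 differences with GANT61.

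Of 18 genes of collagens and matrix proteins above background, 8 were at least 2-fold lower and none higher, beside 9.77% and 8.28% of all genes, and 4 of the 8 met the rule. The median log2 difference of the list was −0.87 with GANT61, the lowest of all lists with at least 5 genes above background, and 0.05 with cyclopamine, and it stayed below 0 (−0.14) with the arrays scaled on the reference genes. Under that scaling 3 genes of the list were at least 2-fold lower and 1 was higher, and 2 met the rule. Of the 4 genes that met it before, COL5A1 alone still did. COL5A1, a chain of fibrillar collagen, had 421 with GANT61, 2004 with cyclopamine and 2104 with DMSO. COL4A5, a chain of the basement membrane, had 373, 831 and 841 by the probe that chose it, and its other probe had 59.4 with GANT61 (below background), 134 with cyclopamine and 122 with DMSO. COL1A1 had 74.9 with GANT61, 145 with cyclopamine and 205 with DMSO, and SERPINH1, the chaperone of collagen, had 187, 279 and 383. The GANT61 array was the lowest for all 4 genes, as the rule required. COL4A2 was lower with both compounds (112 with GANT61, 273 with cyclopamine and 412 with DMSO). COL1A1 is also a marker of fibroblasts. Of 5 markers of these cells, 2 were above background, the sum of the 5 was 243 with GANT61, 333 with cyclopamine and 415 with DMSO, and the defining markers DCN, LUM and COL3A1 were below the limit on every array.

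Some matrix genes outside that list were members too, and these were chosen after their values were seen except where they are among the 25 largest. CCN5, a secreted protein of the CCN family, had 329 with GANT61, 1837 with cyclopamine and 1755 with DMSO. COL15A1 had 72.7, 202 and 284, SVEP1, an adhesion protein of the matrix, had 82.0, 264 and 295, and MAMDC2, a proteoglycan, had 55.7 (below background), 216 and 268, at least 4.21-fold lower. EFEMP1 (fibulin 3) had 160 with GANT61, 690 with cyclopamine and 564 with DMSO, and NPNT (nephronectin), a ligand of integrins, had 98.4, 208 and 274. All 6 genes were lowest on the GANT61 array, as the rule required. With cyclopamine COL15A1, SVEP1, MAMDC2 and NPNT were below DMSO as well, within 1.5-fold, and CCN5 and EFEMP1 were above it. SNAI2 and S100A4, which mark mesenchymal cells, were lower as well, at 249 and 3419 with GANT61, 382 and 5191 with cyclopamine and 520 and 7554 with DMSO (102 and 2530 with GANT61, 148 and 4022 with cyclopamine and 170 and 7643 with DMSO by their other probes), while VIM was at 5656, 4514 and 6333. They are in the list of epithelial to mesenchymal transition, of which 11 genes were above background. Of the 11, 3 were at least 2-fold lower and 1, CD44, was higher, beside 9.77% and 8.28% of all genes. The median log2 difference of this list was −0.15 with GANT61, and 0.58 with the arrays scaled on the reference genes.

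Other lower members, which were grouped here for description, act in signalling or in the cytoskeleton. SORBS2, an adaptor at actin and focal adhesions, was below background with GANT61 (41.6), against 437 with cyclopamine and 331 with DMSO, at least 5.20-fold lower, and its other probe was below background with GANT61 as well (45.6), against 309 with cyclopamine and 193 with DMSO. PPP2R2B, a regulatory subunit of the phosphatase PP2A, had 225 with GANT61, 1407 with cyclopamine and 1530 with DMSO by its brightest probe, but its other probes had 53.8 (below background), 208 and 181, and 252, 259 and 162 in the same order. PDE7B, which breaks down cyclic AMP, had 66.6, 356 and 388, and ITPR1, the receptor that releases calcium from the endoplasmic reticulum, had 517, 1501 and 2062. TNNC1 (troponin C) had 84.5 with GANT61, 564 with cyclopamine and 409 with DMSO, and CRIP1, a LIM protein, had 1264, 3959 and 5642. AXIN2, a target and brake of Wnt signalling, had 128 with GANT61, 292 with cyclopamine and 325 with DMSO. It was the 1 gene of 25 in the Wnt list to meet the rule, beside 2.9% of all genes among the higher and 2.26% among the lower ones.

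Single enzymes of metabolism and detoxification were among the lower members, and they were not counted as a list. ASS1, argininosuccinate synthase of the urea cycle, had 4000 with GANT61, 12362 with cyclopamine and 15726 with DMSO, and its other probe gave log2 differences of −2.28 with GANT61 and −0.72 with cyclopamine, the second of which is past the bound. CPS1, the enzyme that starts this cycle, was lower too, at 1451, 5742 and 9060, although with cyclopamine just past the bound (−0.66 on the log2 scale). ALDH3A1, an aldehyde dehydrogenase, had 104 with GANT61, 338 with cyclopamine and 387 with DMSO, and MAOB, a monoamine oxidase, had 72.1, 267 and 351. PIR (pirin), an iron-binding nuclear protein, had 424, 1617 and 1879, with −1.71 by its other probe. GPX4, the selenoprotein that reduces lipid peroxides, had 2261 with GANT61, 4916 with cyclopamine and 6445 with DMSO, and its other probe gave −1.63. These 5 genes apart from CPS1 met the rule, which required the GANT61 array to be the lowest. SLC7A5 and SLC3A2, the chains of the LAT1 amino acid transporter, had 4108 and 933 with GANT61, 8117 and 1885 with cyclopamine and 9880 and 2412 with DMSO, though a second probe of SLC3A2 gave −0.19 with GANT61 and 0.67 with cyclopamine. Both belong to the ATF4 stress list. Of its 27 genes above background, 6 were at least 2-fold lower and 3 higher with GANT61, beside 9.77% and 8.28% of all genes. In the other direction PPP1R15A, which ends the same stress response, had 2800 with GANT61, 1213 with cyclopamine and 404 with DMSO. The median of this list was −0.36 with GANT61 and 0.05 with cyclopamine on the log2 scale, and the GANT61 median turns positive (0.38) with the arrays scaled on the reference genes.

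Subunits of the respiratory chain and ATP synthase were examined after several appeared among the lower members. Of 72 such genes above background, 13 were at least 2-fold lower and 1 higher with GANT61, beside 9.77% and 8.28% of all genes. The members were COX8A of complex IV (2505 with GANT61, 5194 with cyclopamine and 6889 with DMSO), ATP5MC2 and ATP5PD of ATP synthase (2685 and 3465 with GANT61, 5381 and 5233 with cyclopamine, 7171 and 7008 with DMSO), and NDUFA1, NDUFA3 and NDUFA13 of complex I at log2 differences of −1.22, −1.33 and −1.17. The other probe of ATP5PD gave −1.16 and that of ATP5MC2 −0.64. Most subunits stayed within 2-fold, and the median of the list was −0.29 with GANT61 and 0.12 with cyclopamine, the first of which turns positive (0.45) with the arrays scaled on the reference genes, beside 0.75 for all genes.

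Some lists had no member. No gene of the lists used here for glycolysis, tubulins, cholesterol or fatty acid synthesis, ribosomal proteins, DNA repair or NF-kappaB met the rule. These lists had 12 to 31 genes above background each. Of all genes, 2.9% met the rule among the higher and 2.26% among the lower ones, so a list of this size can lack a member. The lists are partial, since RPL36 and RPS26, ribosomal proteins outside the list, were lower members (log2 differences of −1.33 and −1.08 with GANT61 and −0.18 and −0.05 with cyclopamine), and DCLRE1C (Artemis), a nuclease of DNA repair, was a higher member (1.14 and 0.43). Glycolysis (median log2 differences of −0.54 with GANT61 and −0.91 with cyclopamine) and tubulins (−0.56 and −0.81) were lower with both compounds, and they stood further below DMSO with cyclopamine. With the arrays scaled on the reference genes the GANT61 medians of both turn positive (0.19 and 0.17). The 4 NF-kappaB genes at least 2-fold higher with GANT61 were over 1.5-fold higher with cyclopamine too, among them NFKBIZ at 1455 with GANT61, 693 with cyclopamine and 240 with DMSO. CXCL8 (interleukin 8), a chemokine of neutrophils, had 732 with GANT61, 88.4 with cyclopamine and 49.0 with DMSO, and IL6 had 253, 125 and 54.1. Both cytokines were highest with GANT61, and both were below background with DMSO. By these probes cyclopamine was past the bound of 1.5-fold, whereas another probe of CXCL8 gave log2 differences of 1.99 with GANT61 and 0.10 with cyclopamine. IL11 was the 1 member among 12 genes above background of the cytokine list, which does not hold IL24.

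**Figure D3:**
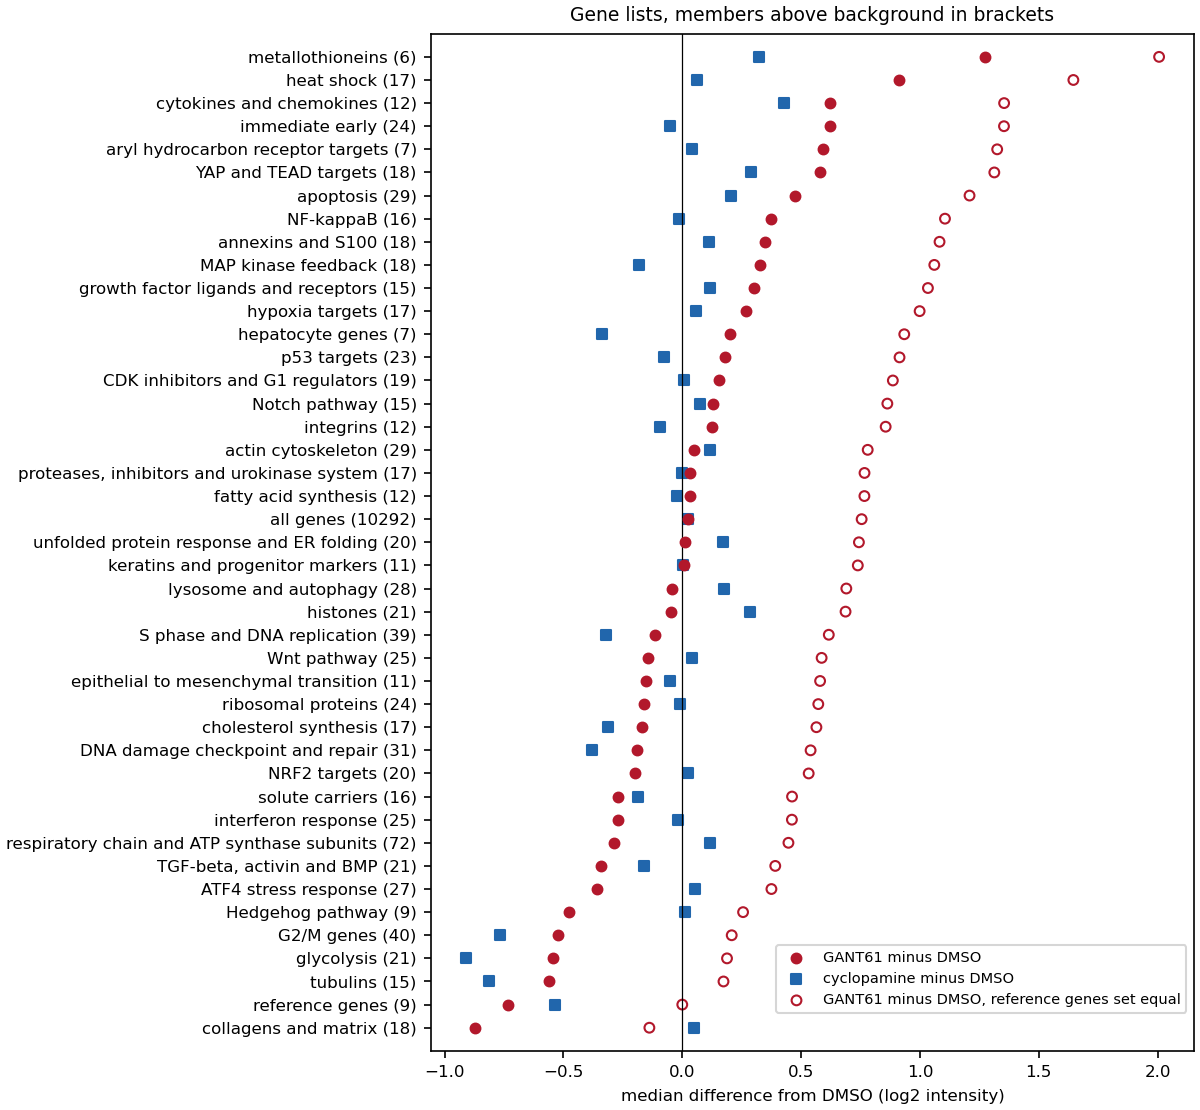
Median log2 difference from DMSO of each gene list with GANT61 (filled circles), with cyclopamine (squares) and with GANT61 after scaling on the reference genes (open circles), over the members above background given in brackets, 1 array a condition. Lists with at least 5 genes above background are drawn. Among these, metallothioneins (1.27) and heat shock genes (0.91) stood highest and collagens and matrix genes (−0.87) lowest with GANT61. The scaling moves every list up by 0.73.

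Probes that the rule did not use were read on the same arrays, which does not replace a second culture. Such a probe was counted if it was above background with GANT61 or with DMSO. A probe below background with DMSO was therefore counted only where it was higher with GANT61, and the reverse. The shares below are in part set by this filter, those of all genes as well. Each gene was read from its brightest probe, and 102 of the higher genes had 127 other probes above background. Of these, 109 (85.8%) were higher with GANT61 than with DMSO, 35 (27.6%) at least 2-fold, and 28 met the whole rule. Among all 3308 such probes of any gene, 50.8% were higher, 6.59% at least 2-fold and 2.78% met the rule. The lower genes had 97 other probes in 74 genes, of which 82 (84.5%) were lower, 35 (36.1%) at least 2-fold and 27 met the rule, against 49.2%, 8.89% and 2.03% of all 3308. Their medians were 0.65 and −0.76 on the log2 scale, smaller than the 1.18 and −1.24 of the probes that chose the genes. For 168 of the 298 and 131 of the 233 there was 1 probe.

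**Figure D4:**
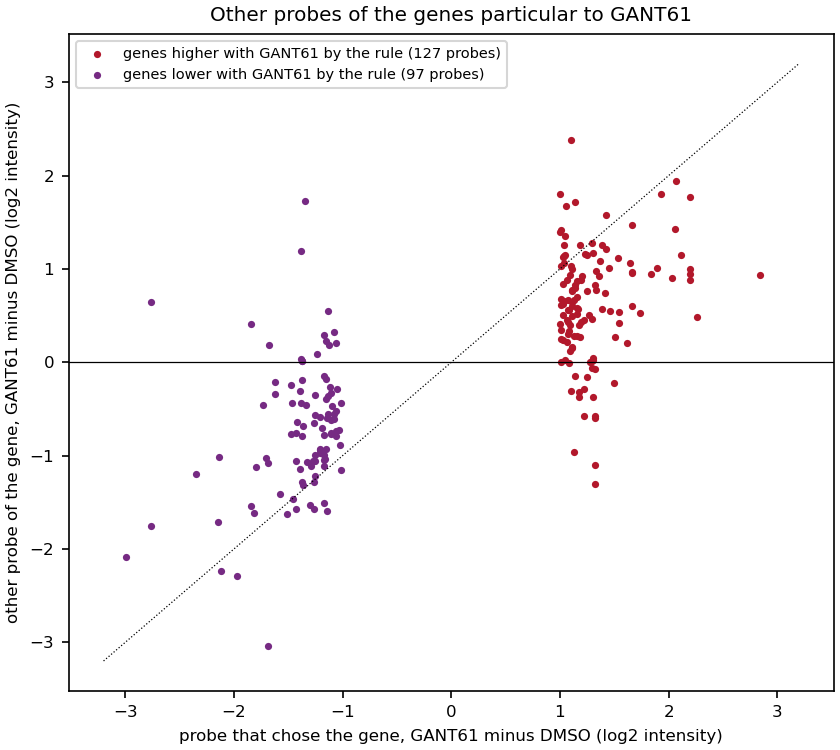
Log2 difference between GANT61 and DMSO by the probe that chose each gene (x axis) and by other probes of that gene above background (y axis), 127 probes of higher and 97 probes of lower genes. Most points are on the same side of 0 on both axes but nearer to 0 on the y axis than the dotted line of equality.

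The 12 genes that moved at least 2-fold with GANT61 and over 1.5-fold the other way with cyclopamine stand outside the rule. EGR1 differed most of them between the inhibitors, by 3.15 on the log2 scale, and members of the rule differed by up to 3.47. EGR1, an immediate early factor of growth signals, had 1173 with GANT61, 132 with cyclopamine and 233 with DMSO. IER3, an early gene linked to survival, had 7128, 865 and 1350, and DUSP5, a nuclear phosphatase of ERK, had 2424, 383 and 653. PLEK2, a pleckstrin of the cell cortex, was at 1.37 with GANT61 and −0.99 with cyclopamine relative to DMSO (log2). Each was highest with GANT61 and lowest with cyclopamine, as were all 5 genes of the kind, since they were chosen by this order. Among the 7 in the other direction were COL12A1, a collagen at 97.6 with GANT61, 428 with cyclopamine and 235 with DMSO, and the phosphatase PTP4A1 and VEPH1, with log2 differences of −1.45 and −1.36 with GANT61 and 0.71 and 0.98 with cyclopamine. With the arrays scaled on the reference genes, none of the 12 would pass both limits. Cyclopamine would then lie within 1.5-fold of DMSO in the 5 higher genes. The 7 lower genes would be under 2-fold with GANT61.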

How the data were processed

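Total RNA from HCC-LM3 cells treated with GANT61, cyclopamine or DMSO was measured on 1 array each. The authors deposited a normalized intensity for each of 47319 probes on a linear scale. The sources used here do not name the software that normalized them. Of a second table, before normalization, 6 columns were not used, since their names fit no sample's labels. Of the probes, 30110 carry 1 gene symbol, 8 with several symbols were dropped, and 17201 have no name in the annotation used; 30071 matched RefSeq (GRCh38.p14). The log2 of the intensity was taken, and the brightest probe by mean log2 stands for a gene. A gene below the limit on 1 array is given as at least N-fold against the limit of 63.75. With 1 array a condition no test was possible, and precision is limited by their number. The set of named genes holds the 25 largest rises and falls, every member in 46 gene lists and all Hh genes. It also holds up to 6 further genes a list. The text describes a part of this set, with the other probes above background of the genes described. MLKL, CGAS, DNAJB6, PLIN3, GPX4 and the genes of the closing section, and unmoved genes given for contrast, were chosen after their values were seen. The members and lists were chosen with earlier results of these data known, and the respiratory chain list after seeing these values. Lists are described by counts and medians beside all genes. The alternatives were normexp with an offset of 50 and quantile normalization, the mean of all probes, other filters and folds, and scaling on 9 reference genes. The steps were tested on simulated data. Python 3.11.15 (numpy 2.4.6, pandas 2.3.3, scipy 1.17.1, matplotlib 3.10.9) did the counts and figures, and limma 3.58.1 in R 4.3.3 did the normexp step.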

Additional observations from a re-analysis of the deposited data

Results flagged for a closer look

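Of the probes with no gene name here, 3367 were above background with GANT61 or DMSO, and the gene counts do not use them. The rule was met by 74 of these among the higher (2.20%) and 51 among the lower ones (1.51%). These shares are below the 2.9% and 2.26% of the named genes. The probe with the largest fall, ILMN_3248094, had 273 with GANT61, 2156 with cyclopamine and 1650 with DMSO, and the probe with the largest rise, ILMN_1855278, had 829, 218 and 151 in the same order. With 1 array a condition, no group could be searched for outlying samples and no difference between effects could be tested.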

How the results depend on the processing

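No paired analysis was possible because each condition has 1 array. The counts of genes at least 2-fold higher and lower with GANT61, and of those that met the rule in each direction (852, 1006, 298 and 233), fell to 177, 295, 46 and 42 at 3-fold. With the arrays scaled on the reference genes they were 3748, 218, 646 and 67, with 852, 218, 60 and 26 genes shared with the counts above. With cyclopamine allowed to be at most 25% above DMSO, or the same fold below it, the rule gave 123 higher and 112 lower genes, and with cyclopamine within 2-fold it gave 595 and 519. The other settings (normexp, the mean of all probes, no filter, both arrays above the limit, a limit of 2 times the most common intensity) kept all 4 counts within 1.5 times. Scaling on the reference genes turned nearly all negative GANT61 medians of lists positive. Those that did not turn were collagens and matrix (−0.14), the fibroblast markers (−0.42) and the reference genes themselves (0). Among those that turned were the Hh (0.26), G2/M (0.21), S phase (0.62), ATF4 (0.38), TGF-beta (0.39) and Wnt (0.59) lists. The mean of all probes turned the sign of the median of the actin list (−0.18). The cause of these differences was not tested, except that the scaling adds 0.73 to every gene with GANT61. Of 113 genes past 2-fold in the set of named genes, none turned its direction under normexp or the mean of all probes. Dim genes, 30 of the higher and 24 of the lower members, have a bound on 1 array, and 288 and 217 members stayed with dim values set to the limit.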

Other observations

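Groups that no list covered were read from the names of the 531 genes, so they were chosen after the values were seen and are given as values alone. Some factors that process ribosomal RNA were higher members. FCF1 had 276 with GANT61, 120 with cyclopamine and 88.2 with DMSO, DDX27 had 1157, 524 and 476, and RRP15 had 1617, 980 and 682. LYAR, UTP3 and UTP23, of the same process, had log2 differences of 1.03, 1.05 and 1.11 with GANT61, and the other probes of FCF1, LYAR and UTP23 gave 1.06, 0.51 and 0.49. NHP2, which acts in the modification of ribosomal RNA, was a lower member (−1.11). Some receptors of cytokines were higher members, IL1RAP at 201 with GANT61, 91.0 with cyclopamine and 67.6 with DMSO, TNFRSF1B at 295, 123 and 110, and IL4R at 233, 113 and 104, beside the rise of IL11 and IL24.

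Genes of the primary cilium, the organelle in which Hh signals are passed on, were in both directions. TCTN1, of its transition zone, had 384 with GANT61, 856 with cyclopamine and 894 with DMSO, and IFT27, of its transport trains, had 137, 296 and 298. CC2D2A, SDCCAG8 and CEP162 had log2 differences of −1.09, −1.14 and −1.14 with GANT61, whereas BBS4, which carries cargo to the cilium, had 1.05. With the arrays scaled on the reference genes, none of these 5 lower genes would reach 2-fold. Of genes of antigen processing, lower members were TAPBP at 320 with GANT61, 790 with cyclopamine and 1063 with DMSO (−0.45 on the log2 scale by its other probe), and PSMB8 at 689, 1446 and 1642, with other probes of PSMB8 at log2 differences of −0.56, −1.22 and −0.35.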
